A study of Mus musculus with 24 samples.

Results

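Genes of antigen presentation and of the interferon response were followed in the hippocampus of mice that differed in age and in training. The genes were chosen by name: probes called H2- followed by letters, Ifit, Ifitm, Irf, Oas or Stat, together with B2m, Psmb8, Psmb9, Psmb10, Tap1, Tap2, Tapbp, Cd74, Bst2 and Isg15. This rule found 133 probes of 86 genes. A probe was kept if its signal stood well above background on 4 or more of the 24 arrays. That left 124 probes of 78 genes, among 38768 probes kept on the whole array. They fell into 36 probes for class I chains, 11 for the supply and loading of class I peptides, 18 for class II molecules and their chaperones, 26 for interferon-induced effectors, 29 for transcription factors of the IRF and STAT families, and 4 whose genes share only the name (H2-Ke2, H2-Ke6, Irf2bp1 and Irf2bp2).

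The mice were C57Bl/6, with 4 in each of 6 groups and 1 Agilent 1-colour array for each mouse. Old fear mice, aged 16 months, spent 3 min in a new chamber, received a foot shock of 0.7 mA for 2 s and were taken 1 h later, and old control mice of the same age were handled but not trained. Young fear mice, aged 3 months, had the same training, context mice explored the chamber without a shock, shock-context mice were shocked on entry and explored afterwards, and young control mice were handled only. No genotype differed between the groups, and the labels name neither pooling nor cell sorting, so each value averages every cell type in the dissected piece.

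Class I molecules sit on nearly all nucleated cells and show peptides of the cell's own proteins to CD8+ T cells, while class II molecules show peptides of ingested material to CD4+ T cells. In brain, class II is known mainly from microglia and from macrophages at its borders. Interferons signal through receptor-bound kinases to STAT factors, which join with IRF factors and switch on antiviral effectors and much of the class I machinery.

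The promoters of these families differ in the short motifs they hold. Promoters from RefSeq (GRCm38.p6) were found for 68 of the 86 genes, and the 250 bases before each start were searched on both strands. The core of the interferon-stimulated response element, GAAA followed by NN and again GAAA, which IRF-containing complexes are known to bind, lay in 9 of 19 effector promoters (47.4%), in 0 of 8 class II promoters and in 3.46% of all 27025 promoters. The following 60-base windows show this core in capitals, on either strand, for effectors and for B2m, the class I light chain, because the results below turn on these families.
Bst2, chr8:71537562-71537621, minus strand: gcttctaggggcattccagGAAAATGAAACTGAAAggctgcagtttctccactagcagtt
Ifit3, chr19:34583382-34583441, plus strand: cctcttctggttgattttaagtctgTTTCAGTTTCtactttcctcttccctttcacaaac
Ifit1, chr19:34640779-34640838, plus strand: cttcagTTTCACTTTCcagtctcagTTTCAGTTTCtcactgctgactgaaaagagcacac
Isg15, chr4:156200850-156200909, minus strand: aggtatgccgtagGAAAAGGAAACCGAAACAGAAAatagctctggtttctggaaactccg
B2m, chr2:122147523-122147582, plus strand: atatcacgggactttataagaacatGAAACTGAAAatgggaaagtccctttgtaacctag

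The letters GATTGG, the inverted CCAAT box that forms the Y box of MHC promoters, were spread the other way. They lay in 8 of 8 class II promoters, in 14 of 18 class I promoters (77.8%), in 3 of 6 promoters of the loading genes and in 0 of 19 effector promoters, against 16.6% of all promoters. The longer spelling TGATTGG, which contains it, was found in 7 of 8 class II promoters and in 8.38% of all. TTCNNNGAA, the core bound by STAT dimers, lay in 12 of 68 promoters (17.6%), against 8.13% of all. A match is only a run of letters, and no factor was measured here. The windows below show GATTGG in capitals, on either strand, in class II genes and then in the classical class I genes.
H2-Aa, chr17:34287840-34287899, minus strand: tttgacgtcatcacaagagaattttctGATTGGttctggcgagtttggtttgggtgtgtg
H2-Eb1, chr17:34305805-34305864, plus strand: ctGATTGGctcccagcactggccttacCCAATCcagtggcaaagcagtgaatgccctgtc
H2-DMb1, chr17:34153102-34153161, plus strand: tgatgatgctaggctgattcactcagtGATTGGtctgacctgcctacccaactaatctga
H2-K1, chr17:34000334-34000393, minus strand: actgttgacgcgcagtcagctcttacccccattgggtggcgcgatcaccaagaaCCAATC
H2-D1, chr17:35263014-35263073, plus strand: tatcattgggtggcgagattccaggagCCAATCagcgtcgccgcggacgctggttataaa

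Class I genes are near copies of one another, and so are their probes. The probes named H2-D1 and H2-Q2 below, both on the plus strand of chromosome 17 (mm9, the build of the file annotation, at chr17:35403132-35403191 and chr17:35482113-35482172), shared 47 of the 50 bases over which they overlap. The stretch of 30 bases that lies in both shows the bases that differ in capitals.
H2-D1, probe A_52_P313279: GtccactgactcttacatggtgatcGttgc
H2-Q2, probe A_51_P219789: AtccactgactcttacatggtgatcAttgc
The probes named H2-Q7 and H2-T23 shared 50 of 59 bases, and the overlapping parts of probes named H2-Q10 and H2-Q5 were identical over 35 of 35 bases. A class I value therefore belongs to a probe and may be the summed signal of several genes.

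Levels below are log2 signals minus the log2 of the same array's 75th percentile, so a level of 0 is the signal that 75% of spots do not exceed. Changes are differences of group means with the SE of a limma fit over all arrays, and the threshold was a Benjamini-Hochberg adjusted p of 0.05 over all 38768 probes. Scanning was done in separate runs. The first held the 16 arrays of control and fear mice (75th percentile 757 to 2137, with 86.6 to 94.0% of probes detected well above background) and the second the 8 arrays of context and shock-context mice (3101 to 8369, 75.5 to 81.7%). Of the 124 kept probes, 97 were well above background on all 24 arrays and 0 were saturated. H2-Ea, the alpha chain of the class II molecule I-E, was well above background on 0 of 24 arrays; C57BL/6 mice are known to carry a defective copy. The young fear arrays stood apart from the young control arrays over the whole array, with 44.6% of all probes past the threshold.

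**Figure D1:**
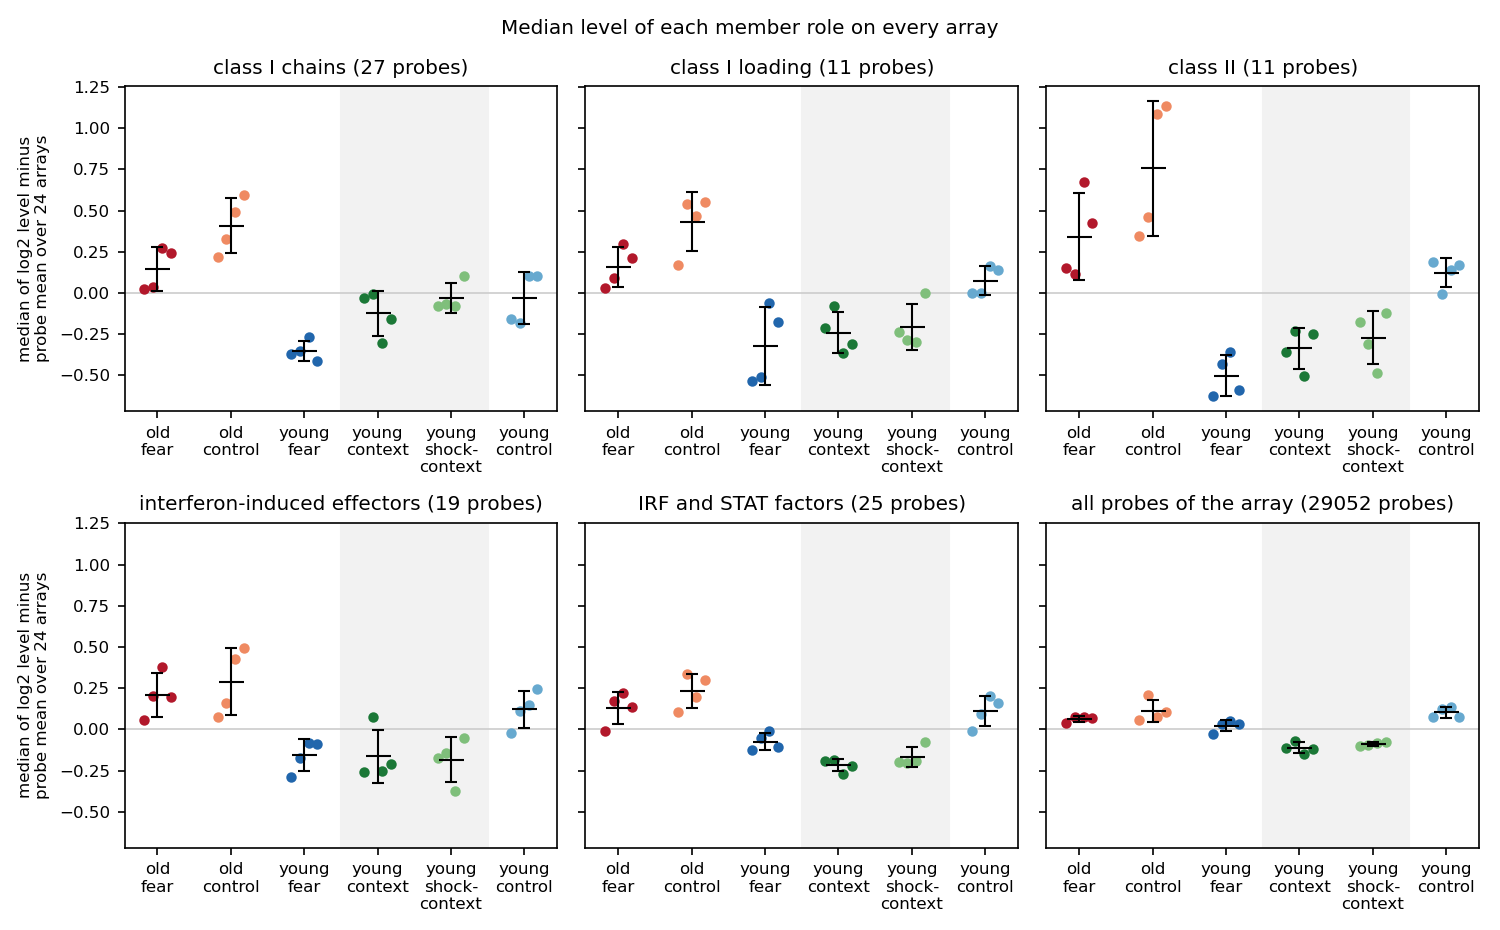
Each point is 1 array: the median, over the probes of a role that were well above background on all 24 arrays, of the log2 level minus that probe's mean over the arrays. Bars give the mean ± SD of 4 arrays a group, and grey shading marks the second run; class II spans the widest range, with old control arrays at 0.34 to 1.13 and young fear arrays at -0.63 to -0.36.

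Without training, most class II, class I and loading probes had higher levels in old than in young hippocampus (17 of 18, 31 of 36 and 10 of 11), although few single probes passed the threshold. Of the 124 probes, 6 rose in old control against young control mice (4.84%, against 0.356% of all probes) and 0 fell (0.191% of all probes). The change was above 0 for 102 of 124 probes (82.3%), against 51.5% of all probes. The median log2 change was 0.52 for class II, 0.33 for class I loading, 0.29 for class I chains, 0.22 for effectors and 0.13 for IRF and STAT factors, beside 0.0079 for all probes. These medians stayed above 0 under quantile normalization, median scaling, normexp background correction and the deposited values, although with normexp the median of all probes was itself 0.23, beside 0.52 for class II and 0.40 for class I. In whole tissue, more cells of a type and more RNA per cell cannot be told apart.

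Psmb8, a catalytic subunit of the immunoproteasome that cuts peptides for class I, changed most clearly. Its probe A_51_P345367 (chr17:34337771-34337830, plus strand, mm9) had levels of -0.92, -0.58, -0.48 and -0.30 in old control mice, against -1.30, -1.65, -1.36 and -1.35 in young control mice. The groups did not overlap, and old control array 1 lay nearest to the young mice. The log2 change was 0.85 ± 0.14 (adjusted p = 0.0051 by limma). A second probe just downstream, A_51_P345366, had -0.38, -0.63, -0.28 and -0.16 in old control mice and -0.85, -0.93, -0.83 and -1.10 in young control mice, a change of 0.56 ± 0.10 (adjusted p = 0.011).

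The other loading genes ranged widely. Tap1 and Tap2, which together pump peptides into the endoplasmic reticulum, had changes of 0.49 ± 0.18 and 0.43 ± 0.14 (adjusted p = 0.33 and 0.22). Psmb9, the immunoproteasome subunit encoded beside Tap1, had 0.35 ± 0.13 (adjusted p = 0.33), and Tapbp, the peptide-loading chaperone tapasin, 0.21 ± 0.09 (adjusted p = 0.45). Psmb10, the third inducible subunit, had -0.17 ± 0.12 and B2m 0.06 ± 0.14 (adjusted p = 0.77 and 0.96). None of these passed the threshold.

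Among class II genes, H2-DMb1, a chain of the molecule that exchanges class II peptides, passed the threshold. Its probe A_51_P278868 (chr17:34297109-34297168, plus strand, mm9) had -1.26, -0.88, -0.63 and -0.56 in old control mice, against -1.35, -1.49, -1.60 and -1.58 in young control mice. The lowest old mouse lay just above the highest young mouse, and the change was 0.67 ± 0.14 (adjusted p = 0.031). The other H2-DMb1 probe, A_52_P146877, had 0.62 ± 0.18 and did not pass (adjusted p = 0.15).

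The chains of the class II molecule I-A had larger changes with more spread. H2-Aa had levels of -3.46, -3.34, -2.77 and -2.41 in old control mice and -3.65, -3.96, -3.94 and -3.72 in young control mice, and its change of 0.82 ± 0.21 missed the threshold (adjusted p = 0.10). H2-Ab1 had -0.97, -0.84, 0.14 and 0.25 in old control mice, against -1.22, -1.12, -1.06 and -1.03 in young control mice (0.75 ± 0.24, adjusted p = 0.21). For both chains the groups did not overlap, and old control arrays 3 and 4 stood well above arrays 1 and 2. Cd74, the invariant chain that escorts class II, had 0.45 ± 0.42 (adjusted p = 0.85), H2-Oa, a modulator of peptide exchange, 0.62 ± 0.20 (adjusted p = 0.22) and H2-Eb1, the beta chain of I-E, 0.39 ± 0.21 (adjusted p = 0.64). Over the class II probes the median change was 0.21, 0.54, 0.48 and 0.85 on the 4 slides, each of which held 1 array of either group.

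In class I, 2 of 36 probes passed. The probe A_51_P190499, named H2-K1 but without a position in the file, had 1.38, 1.88, 1.77 and 1.66 in old control mice and 1.27, 1.12, 0.88 and 1.17 in young control mice (0.56 ± 0.12, adjusted p = 0.031). The other H2-K1 probes did not pass, with A_51_P198434, the brightest, at 0.46 ± 0.12 (adjusted p = 0.11). The probe A_52_P57582, named H2-Q2 but placed at chr17:36193352-36193527, away from the other probes of that name, had 1.08, 1.29, 1.33 and 1.60 in old control mice and 0.88, 0.60, 0.82 and 0.97 in young control mice (0.51 ± 0.11, adjusted p = 0.039). Neither probe's groups overlapped. H2-D4 had 0.82 ± 0.20 (adjusted p = 0.075), H2-T23, a nonclassical chain, 0.38 ± 0.13 (adjusted p = 0.27) and H2-D1 0.30 ± 0.18 (adjusted p = 0.71).

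Ifit3, an antiviral effector of the tetratricopeptide family, was the effector that passed. Its probe A_51_P359570 (chr19:34663105-34663164, plus strand, mm9) had 0.23, 0.17, 0.44 and 0.54 in old control mice, against -0.27, -0.16, -0.35 and -0.38 in young control mice. The groups were well apart, with a change of 0.63 ± 0.12 (adjusted p = 0.012). Other effectors gave smaller or noisier values that missed the threshold: Oasl1 0.79 ± 0.39 (adjusted p = 0.58), Oasl2 0.37 ± 0.15 (adjusted p = 0.42), Ifit1 0.35 ± 0.29 (adjusted p = 0.82), Bst2, the virus tether tetherin, 0.25 ± 0.16 (adjusted p = 0.72), Ifitm3, which blocks viral entry, 0.22 ± 0.33 (adjusted p = 0.93), the ubiquitin-like Isg15 0.15 ± 0.17 (adjusted p = 0.89) and Oas1a, an RNA sensor, 0.13 ± 0.21 (adjusted p = 0.94).

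None of 29 probes for transcription factors passed, with 4 at an unadjusted p under 0.05 by limma. Stat3, which carries signals of several cytokines, had 0.40 ± 0.14 (adjusted p = 0.30) and Irf8, a factor of microglia and other myeloid cells, 0.34 ± 0.09 (adjusted p = 0.11). Irf1 had 0.25 ± 0.09 and Irf7, the amplifier of type I interferon, 0.22 ± 0.22 (adjusted p = 0.31 and 0.87). Stat2, which carries the interferon signal itself, had 0.13 ± 0.13, Irf3 0.13 ± 0.12 and Irf9, the partner of Stat2 on DNA, -0.08 ± 0.15 (adjusted p = 0.88, 0.85 and 0.95).

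Of 62 other measured genes of these pathways, 1 rose and 0 fell: Cxcl10, an interferon-induced chemokine, at 1.42 ± 0.26 (adjusted p = 0.0106). The interferon genes themselves, 4 probes, had a median change of 0.03 with 0 past the threshold. Microglia markers moved with the members: 3 of 12 rose, 12 of 12 changes were above 0, and their summed level was 42.8 to 50.6 in old control mice against 33.6 to 42.1 in young control mice, where the sum adds the linear signals over each array's 75th percentile. T cell markers summed to 0.83 to 1.51 in old control and 0.35 to 1.29 in young control mice, with 0 of 6 past the threshold. Other cell types moved too. Gfap, a marker of astrocytes, rose by 0.67, the thalamus marker Prkcd rose by 0.63 and the endothelial marker Slco1a4 fell by 0.39 (adjusted p = 0.036, 0.049 and 0.043). Oligodendrocyte markers summed to 144 to 173 in old control mice against 125 to 133 in young control mice, with 0 of 6 past the threshold. Border macrophage markers, with 0 of 6 past the threshold, summed to 0.99 to 2.10 in old control and 1.43 to 1.61 in young control mice. The part of these cells in the members' change was not tested.

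The 6 calls depended on single mice and on the model of the spread. The count of member probes past the threshold was 1 without old control 4, 2 without old control 3, 12 without old control 1 and 3 without young control 2. With arrays 1 and 2, and arrays 3 and 4, of each group taken as random blocks it was 0, with the slide as replicate block 1, and with only these 8 arrays in the fit 0.

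**Figure D2:**
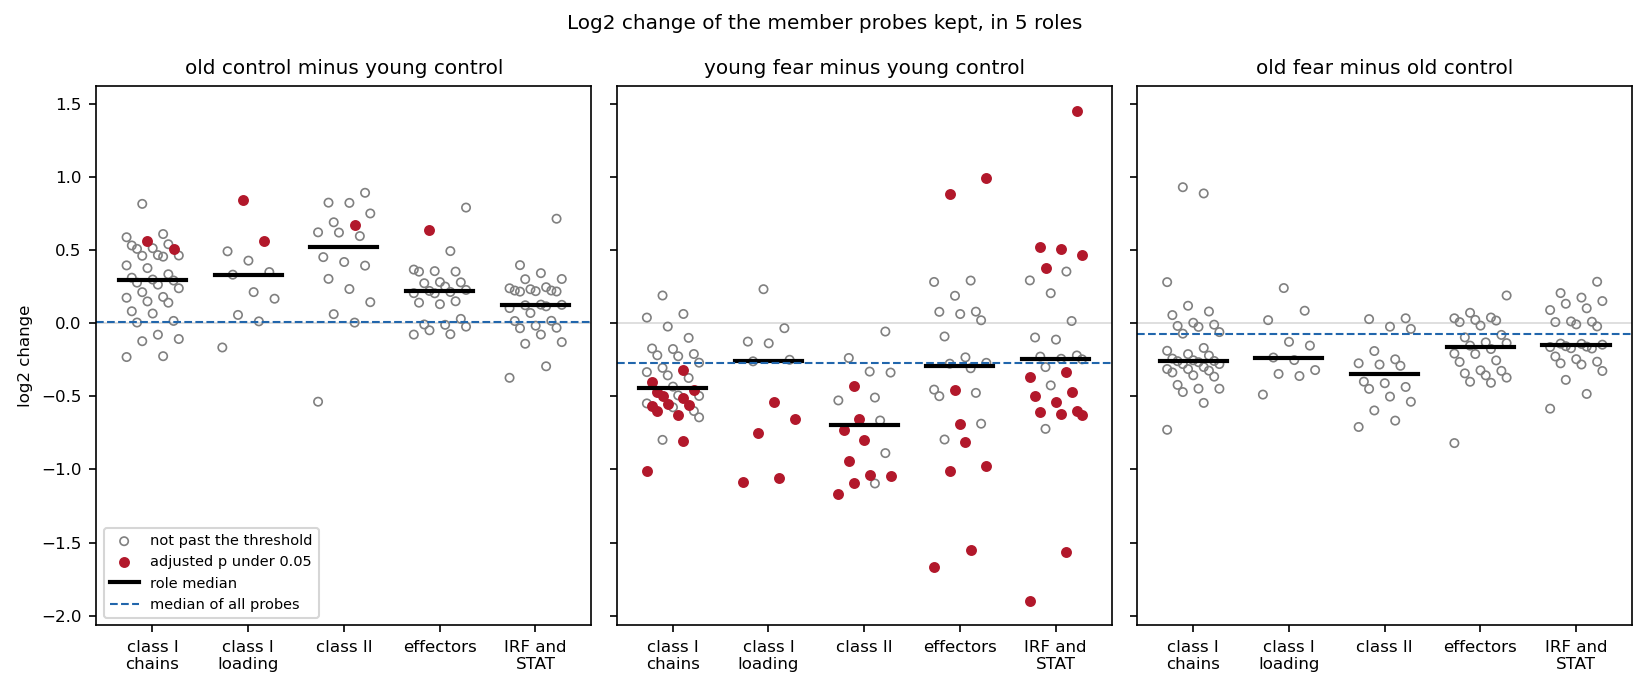
Log2 change (vertical axis) of each kept probe in old control against young control, young fear against young control and old fear against old control mice, in 5 roles; genes that share only the name are not drawn. Filled points passed the threshold, thick lines are role medians and the dashed line is the median of all probes, which lies at -0.27 for young fear.

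Training in young mice went with lower levels of most of these genes, in a comparison where much of the array differed. In young fear against young control mice, 47 of 124 probes fell (37.9%, against 27.5% of all probes) and 8 rose (6.45%, against 17.2%), so that 44.4% passed, beside 44.6% of all probes. The share that passed was thus that of the array, while the change was above 0 for 23 of 124 probes (18.5%), against 34.1% of all probes. The median of all probes was itself -0.27 in this scaling, -0.13 with median scaling and -0.08 with quantile normalization, and the split of member calls became 14 higher and 41 lower with quantile normalization. Class II had the lowest median of the roles, at -0.70 with 0 of 18 probes above 0, and it was also below that of all probes with median scaling (-0.56) and quantile normalization (-0.44). Class I chains had a median of -0.44, effectors -0.29, loading genes -0.26 and IRF and STAT factors -0.25, the last 3 close to the median of all probes.

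Immunoproteasome genes fell. Psmb10 (A_52_P570266) had 2.75, 2.86, 2.71 and 2.78 in young fear mice, against 3.78, 4.00, 4.05 and 3.63 in young control mice, a change of -1.09 ± 0.12 (adjusted p = 3.1e-07). Psmb9 (A_51_P369803) had -1.93, -1.91, -2.38 and -1.99 in young fear mice and -1.06, -1.08, -0.90 and -0.96 in young control mice (-1.06 ± 0.13, adjusted p = 1.5e-06). Neither gene's groups overlapped. Psmb8 lay at -1.71, -1.69, -1.65 and -1.68 in young fear mice with the downstream probe and at -2.23, -2.04, -1.91 and -2.11 with the upstream one, below every young control array given above, with changes of -0.75 ± 0.10 and -0.66 ± 0.14 (adjusted p = 4.3e-06 and 0.00064). Tap2 fell by 0.54 ± 0.14 (adjusted p = 0.0029), with overlapping groups. B2m at -0.25 ± 0.14, Tap1 at -0.26 ± 0.18 and Tapbp at -0.13 ± 0.09 did not pass (adjusted p = 0.15, 0.24 and 0.26).

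Of the 18 class II probes, 9 fell (50%, against 27.5% of all probes) and 0 rose (against 17.2%). H2-DMb1 had -2.67, -2.66, -2.60 and -2.75 in young fear mice, well below all young control arrays (A_51_P278868, -1.17 ± 0.14, adjusted p = 1.3e-06). The other H2-DMb1 probe, A_52_P146877, had -0.34 ± 0.18 and did not pass (adjusted p = 0.12). H2-Aa had -4.87, -4.76, -4.44 and -4.97 in young fear mice (-0.94 ± 0.21, adjusted p = 0.0012) and H2-Ab1 -1.95, -1.97, -1.91 and -1.79 (-0.80 ± 0.24, adjusted p = 0.0094). For these chains too no young fear array reached a young control array. H2-Eb1 fell by 0.65 ± 0.21 (adjusted p = 0.018), while Cd74 at -0.06 ± 0.42 did not pass (adjusted p = 0.92).

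Class I chains had 13 of 36 probes lower (36.1%, against 27.5% of all probes) and 0 higher (against 17.2%). H2-M3, which presents formylated peptides of bacteria and mitochondria, fell by 0.81 ± 0.15 with the probe A_51_P469968 (adjusted p = 0.00020) and had 0.06 ± 0.15 with A_52_P490263 (adjusted p = 0.74). Other chains that fell were H2-T23, by 0.63 ± 0.13 (adjusted p = 0.00047), and H2-Q7, a nonclassical chain, by 0.55 ± 0.11 (adjusted p = 0.00044). H2-K1 (A_51_P198434) fell by 0.47 ± 0.12 (adjusted p = 0.0042). H2-D1 had -0.31 ± 0.18 with its brightest probe A_52_P313279, which did not pass (adjusted p = 0.17), while A_51_P496996 of the same name fell by 0.50 ± 0.13 (adjusted p = 0.0035).

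Of 26 effector probes, 7 fell (26.9%, near the 27.5% of all probes) and 2 rose (7.69%, against 17.2%). Bst2 (chr8:74058603-74058662, minus strand, mm9) was lowest in young fear mice, at -0.77, -1.08, -1.03 and -1.01, against 0.81, 0.80, 0.72 and 0.44 in young control mice (-1.67 ± 0.16, adjusted p = 5.3e-08). Oas1c, a relative of the RNA sensor Oas1a, had -3.24, -3.21, -3.50 and -3.53 in young fear mice, against -2.42, -2.24, -2.39 and -2.39 in young control mice (-1.01 ± 0.09, adjusted p = 3.9e-08). Neither gene's groups overlapped. Ifitm5, known from bone-forming cells, fell by 1.55 ± 0.38 (adjusted p = 0.0024), Oas1e by 0.98 ± 0.26 (adjusted p = 0.0049) and Isg15 by 0.69 ± 0.17 (adjusted p = 0.0020).

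Ifit1 rose while its relatives on the same chromosome did not pass. Its levels were -3.26, -3.11, -2.10 and -1.89 in young fear mice and -3.74, -3.24, -3.54 and -3.37 in young control mice, with overlapping groups (0.88 ± 0.29, adjusted p = 0.016). Young fear array 1 lay just below the highest young control array, and arrays 3 and 4 stood well above it. Ifit3 had -0.27, -0.29, 0.01 and 0.13 in young fear mice, again with arrays 3 and 4 the higher ones (0.19 ± 0.12, adjusted p = 0.20). Oasl1 rose by 0.99 ± 0.39 (adjusted p = 0.046), although normexp background correction gave it -0.43. Ifitm3 at -0.48 ± 0.33, Oas1a at -0.31 ± 0.21 and Oasl2 at -0.09 ± 0.15 did not pass (adjusted p = 0.24, 0.24 and 0.63).

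Among the IRF and STAT factors, 11 of 29 probes fell (37.9%, against 27.5% of all probes). Another 5 rose (17.2%, the same share as over all probes). In Irf1, probes of the same gene went opposite ways. Irf1 gave 0.51 ± 0.18 upstream and -0.47 ± 0.09 downstream (adjusted p = 0.031 and 0.00019), although normexp turned the upstream value to -0.10. No single direction of the transcript follows from these probes.

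Irf9 probes differed in whether they changed. Its upstream probe A_52_P176013 had -3.83, -3.70, -4.18 and -4.03 in young fear mice, against -5.78, -5.85, -5.07 and -4.86 in young control mice, and rose by 1.45 ± 0.26 without overlap (adjusted p = 0.00013). The downstream probe, with much higher signal, had a change of 0.015 ± 0.15 (adjusted p = 0.94), and normexp background correction gave the upstream probe -0.014. Irf3, which starts the type I interferon response, gave -1.56 ± 0.22 upstream and -0.37 ± 0.12 downstream (adjusted p = 6.2e-06 and 0.015). Stat2 fell by 0.63 ± 0.13, Stat3 by 0.60 ± 0.14 and Irf8 by 0.34 ± 0.09, and Irf5 rose by 0.38 ± 0.12 (adjusted p = 0.00054, 0.0015, 0.0054 and 0.013). Irf7 at -0.30 ± 0.22 did not pass (adjusted p = 0.27). Over 26 member genes with probes apart on the genome the downstream probe was the lower in 16 (61.5%), against 51.3% of 6777 genes.

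**Figure D3:**
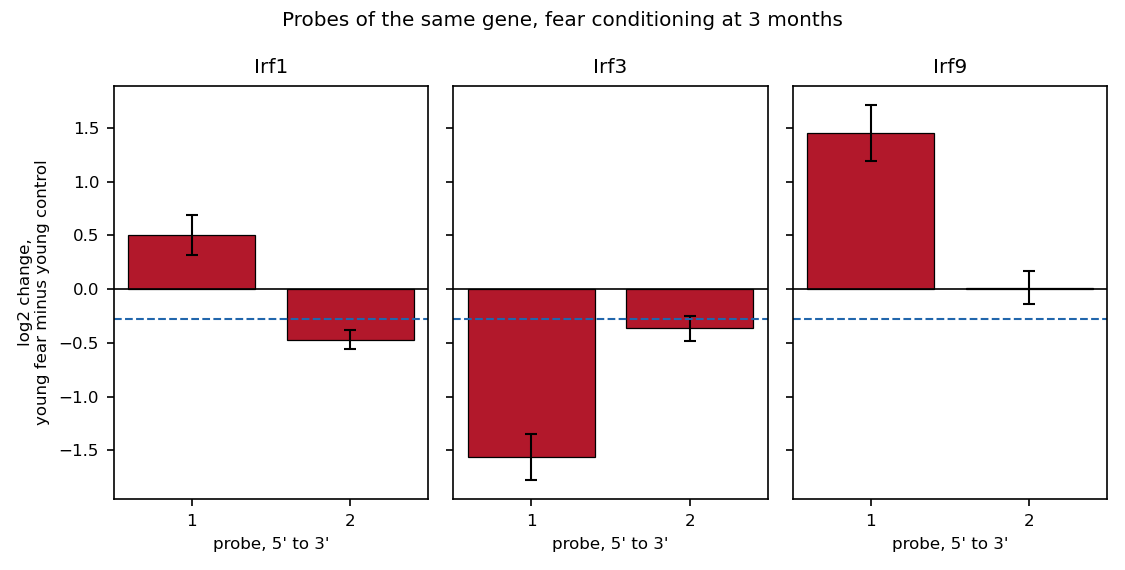
Log2 change in young fear against young control mice (vertical axis) for the probes of Irf1, Irf3 and Irf9 in order along the gene, with the SE of the fit; red bars passed the threshold and the dashed line is the median of all probes. Irf1 runs from 0.51 upstream to -0.47 downstream, and Irf9 from 1.45 to 0.015.

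Beyond the members, 25 of 62 other pathway genes fell and 6 rose, where 27.5% of all probes fell and 17.2% rose. Psme2, a subunit of the proteasome activator, fell by 1.03, while Adar, an RNA-editing enzyme induced by interferon, rose by 1.496 and Rfx5, which binds class II promoters, rose by 0.98. Rfxank, another subunit of the same complex, fell by 0.90 (adjusted p = 5.7e-06). Markers of other cells differed far more than the members. Choroid plexus markers fell for 8 of 8 genes, with a summed level of 1.81 to 4.66 in young fear mice against 32.8 to 60.6 in young control mice, and thalamus markers rose for 6 of 6, at 11.3 to 12.9 in young fear mice against 3.12 to 4.31 in young control mice. Red blood cell markers fell for 3 of 3 (30.01 to 45.5 in young fear mice, 57.5 to 79.0 in young control mice), and of 12 microglia markers 5 fell and 2 rose (26.7 to 29.0 in young fear mice, 33.6 to 42.1 in young control mice). Of 6 border macrophage markers 2 fell, Ms4a7 by 0.83 and Cbr2 by 0.74, with sums of 0.98 to 1.17 in young fear mice and 1.43 to 1.61 in young control mice. Endothelial markers summed to 9.35 to 10.35 in young fear mice against 12.2 to 16.3 in young control mice (2 of 6 fell and 3 rose). Oligodendrocyte markers summed to 154 to 165 in young fear mice against 125 to 133 in young control mice (2 of 6 fell and 2 rose). Of 6 astrocyte markers 2 rose, among them Gfap by 1.33, and 2 fell. The part of these cell types in the members' changes was not tested.

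In old mice, training left 0 of 124 probes past the threshold, beside 0.126% of all probes in old fear against old control mice, with 27 member probes at an unadjusted p under 0.05 by limma. The change was above 0 for 30 of 124 probes (24.2%), against 38.4% of all probes, and the median was -0.35 for class II, -0.26 for class I, -0.23 for loading genes, -0.17 for effectors and -0.15 for IRF and STAT factors, beside -0.07 for all probes. The old control arrays also serve in the comparison of old with young control mice, so the values of the comparisons are not independent.

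Psmb8 (A_51_P345367) had -1.04, -1.35, -0.79 and -1.07 in old fear mice, against the old control levels above, with overlapping groups (-0.49 ± 0.14, adjusted p = 0.16). H2-Aa had -4.02, -3.88, -3.19 and -3.56 in old fear mice (-0.67 ± 0.21, adjusted p = 0.20) and H2-DMb1 -1.36, -1.43, -0.96 and -1.34 (-0.44 ± 0.14, adjusted p = 0.21). Each overlapped the old control mice. H2-Ab1 had -1.19, -0.98, -0.37 and -0.53 in old fear mice (-0.41 ± 0.24, adjusted p = 0.45), with arrays 3 and 4 above arrays 1 and 2 as in the old control mice.

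H2-Oa at -0.71 ± 0.20, Tapbp at -0.35 ± 0.09 and the H2-Q2 probe A_52_P57582 at -0.42 ± 0.11 missed the threshold (adjusted p = 0.15, 0.13 and 0.14). The other probes of H2-Oa (A_51_P449325) and Tapbp (A_52_P684830) had -0.25 and -0.36 (adjusted p = 0.52 for each). For H2-Bl, a class I gene, the probes A_51_P247114 and A_52_P560113, which share 30 bases, had 0.89 ± 0.22 and 0.93 ± 0.27, whereas A_52_P350519 had -0.31 ± 0.15, and none passed (adjusted p = 0.11, 0.16 and 0.37). Bst2 had -0.36 ± 0.16, H2-T23 -0.31 ± 0.13, the H2-K1 probes A_51_P190499 and A_51_P198434 -0.30 ± 0.12 and -0.25 ± 0.12, Stat3 -0.28 ± 0.14 and Ifit3 -0.08 ± 0.12, and none passed (adjusted p = 0.33, 0.30, 0.29, 0.38, 0.39 and 0.80). Of 62 other pathway genes 0 passed, while 4 of 6 thalamus markers rose (8.99 to 14.7 in old fear mice, 3.35 to 6.31 in old control mice) and 1 of 12 microglia markers fell (38.2 to 46.1 in old fear mice, 42.8 to 50.6 in old control mice). The part of these cells in the members' values was not tested.

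**Figure D4:**
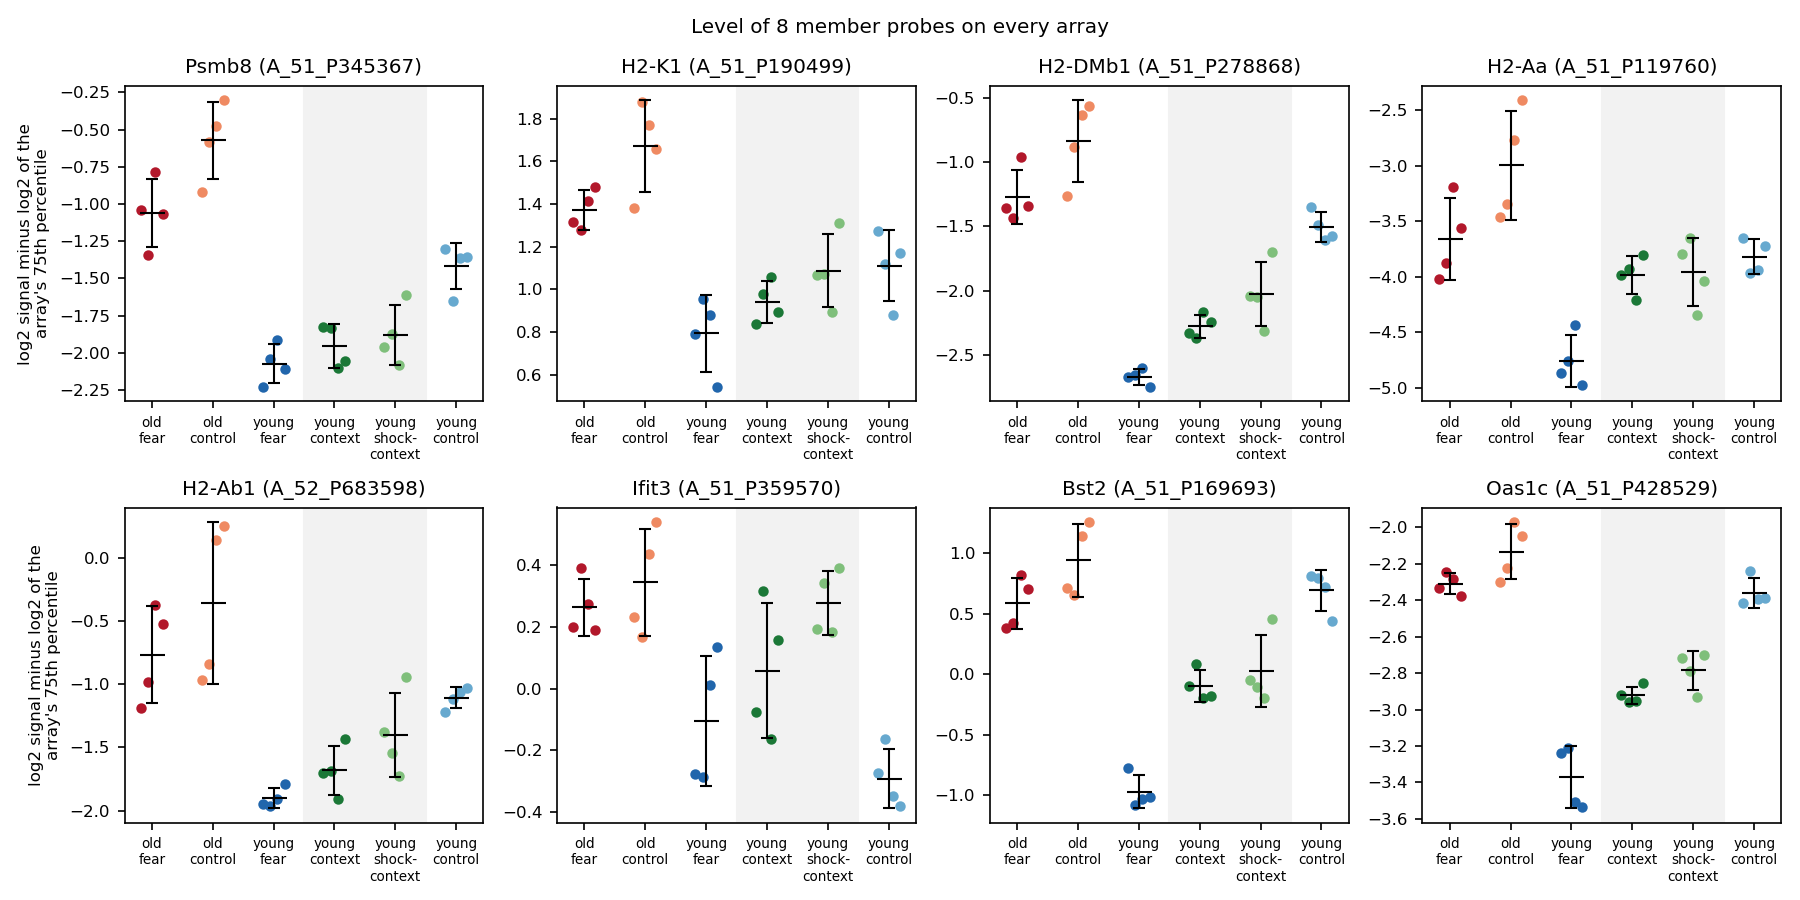
Level of 8 member probes on every array (vertical axis, log2 signal minus log2 of the array's 75th percentile), with mean ± SD of 4 mice a group and grey shading for the second run. H2-DMb1, Bst2 and Oas1c lie lowest on all young fear arrays, and Psmb8, H2-DMb1 and Ifit3 lie higher in old control than in young control mice without overlap.

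Old and young trained mice differed over much of the array. In old fear against young fear mice 55 of 124 probes were higher (44.4%, against 22.9% of all probes) and 5 lower (4.03%, against 17% of all probes), 60 in all (48.4%, against 39.9%). The change was above 0 for 36 of 36 class I probes and 18 of 18 class II probes, with medians of 0.50 and 0.66 beside 0.21 for all probes. Above the median of all probes this was 0.29 for class I and 0.45 for class II, against 0.29 and 0.52 in old control against young control mice. Class II also stayed above the median of all probes with quantile normalization (0.55 against 0.05). The probes that passed as higher were 18 of 36 in class I (50%) and 11 of 18 in class II (61.1%). They were 6 of 11 among loading genes (54.5%) and 6 of 26 among effectors (23.1%, near the 22.9% of all probes). None of these roles had a passing probe that was lower. Among IRF and STAT factors 12 of 29 were higher (41.4%) and 4 lower (13.8%).

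Psmb8 gave 1.16 ± 0.10 and 1.01 ± 0.14, Psmb9 1.17 ± 0.13 and Psmb10 0.79 ± 0.12 (adjusted p = 2.3e-08, 6.2e-06, 4.4e-07 and 1.5e-05). The largest class II values among those named were 1.40 ± 0.14 for H2-DMb1, 1.14 ± 0.24 for H2-Ab1 and 1.10 ± 0.21 for H2-Aa (adjusted p = 1.5e-07, 0.00056 and 0.00030). H2-M3 had 1.01 ± 0.15, H2-T23 0.69 ± 0.13 and H2-K1 0.68 ± 0.12 (adjusted p = 1.8e-05, 0.00019 and 0.00016). For each of these probes the old fear and young fear arrays did not overlap. The second probes of H2-DMb1 and H2-M3 had 0.67 ± 0.18 and 0.08 ± 0.15 (adjusted p = 0.0044 and 0.68).

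Bst2 had 0.39, 0.43, 0.82 and 0.71 in old fear mice, all above the young fear levels given earlier (1.56 ± 0.16, adjusted p = 1.3e-07). Oas1c had -2.33, -2.25, -2.29 and -2.38 in old fear mice (1.06 ± 0.09, adjusted p = 2.3e-08) and Ifit3 0.20, 0.39, 0.27 and 0.19 (0.37 ± 0.12, adjusted p = 0.017). These effectors did not overlap between the ages. Stat2 had 0.76 ± 0.13 (adjusted p = 7.9e-05), whereas the upstream Irf9 probe was lower at -1.40 ± 0.26 (adjusted p = 0.00020), a sign that normexp turned to 0.52. Choroid plexus markers rose for 7 of 8 genes here, at 33.3 to 44.3 in old fear against 1.81 to 4.66 in young fear mice, and of 12 microglia markers 6 were higher and 1, Itgam, was lower, with sums of 38.2 to 46.1 in old fear against 26.7 to 29.0 in young fear mice. Border macrophage markers were higher for 4 of 6 (1.28 to 2.11 in old fear mice, 0.98 to 1.17 in young fear mice) and red blood cell markers for 3 of 3 (53.6 to 64.4 in old fear mice, 30.01 to 45.5 in young fear mice). The part of these cells was not tested.

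The difference between the ages in the response to training was tested directly, as the change in old mice minus the change in young mice. It passed for 19 of 124 probes (15.3%, against 25.9% of all probes), 15 above 0 and 4 below, and its median was 0.19 for the members beside 0.18 for all probes. Quantile normalization moved this split to 15 above and 10 below. The share that passed lay below that of the array.

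Bst2 differed by 1.31 ± 0.22, Oas1c by 0.83 ± 0.13, Psmb10 by 0.96 ± 0.17, Psmb9 by 0.82 ± 0.18, Psmb8 (A_51_P345366) by 0.60 ± 0.14 and H2-DMb1 by 0.73 ± 0.20 (adjusted p = 0.00018, 8.7e-05, 0.00023, 0.0021, 0.0035 and 0.0097). Each fell in young mice and had no call in old mice. Of 36 class I probes 2 passed, H2-Bl (A_51_P247114) at 1.46 ± 0.30 and H2-M3 at 0.80 ± 0.21 (adjusted p = 0.0013 and 0.0085), and of 18 class II probes 1 passed. The second probes of H2-DMb1 and H2-M3 had 0.05 ± 0.25 and 0.02 ± 0.21 (adjusted p = 0.92 and 0.97). The other Psmb8 probe, A_51_P345367, changed by -0.66 in young and -0.49 in old mice, values closer together than those of A_51_P345366 (-0.75 and -0.15). For H2-Bl, the probe A_52_P350519 had -0.22 in young and -0.31 in old mice and passed at neither age (adjusted p = 0.23 and 0.37).

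The context and shock-context mice were compared with one another within the second run. Of 124 member probes 0 passed in context against shock-context mice, beside 0% of all probes, with 3 member probes and 2188 of all probes at an unadjusted p under 0.05 by limma. H2-Q10 (A_51_P230269) had -0.58 ± 0.22, B2m 0.30 ± 0.14 and Oas2, an RNA sensor, 0.32 ± 0.15 (adjusted p = 0.88 for each), and the groups overlapped in each of these.

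Comparisons of these groups with young control or young fear mice cross the runs, and run and group cannot be told apart in them. In context against young control mice 12 member probes were higher and 60 lower (58.1% in all), against 18.4% and 50.4% of all probes (68.8% in all). In shock-context against young control mice 9 were higher and 57 lower (53.2% in all), against 16.1% and 49.3% of all probes (65.4% in all). Scaling turned these splits to 34 higher and 36 lower and to 33 higher and 33 lower with quantile normalization, so they give no direction for the families. Both comparisons use the same young control arrays.

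Side by side, Bst2 had -0.79 ± 0.16 in context and -0.67 ± 0.16 in shock-context mice against young control mice, with levels of -0.10, 0.09, -0.20 and -0.18 in context and -0.05, -0.11, -0.20 and 0.46 in shock-context mice (adjusted p = 0.00014 and 0.00085). The levels lay between those of the young fear and young control mice, apart from shock-context array 4, which reached the lowest young control mouse. Oas1c had -0.56 ± 0.09 and -0.42 ± 0.09, H2-DMb1 (A_51_P278868) -0.77 ± 0.14 and -0.52 ± 0.14, and Psmb10 -1.22 ± 0.12 and -1.004 ± 0.12. Psmb8 (A_51_P345366) had -0.31 ± 0.10 in each, a sign that median scaling turned. H2-D4 and Ifit3 were higher, at 1.11 ± 0.20 and 1.04 ± 0.20 and at 0.35 ± 0.12 and 0.57 ± 0.12. All these values passed the threshold. The other H2-DMb1 probe, A_52_P146877, had -0.21 in context against young control mice and did not pass (adjusted p = 0.29).

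In young fear against context mice 44 member probes were higher and 30 lower (59.7% in all), against 46.1% and 19.8% of all probes (65.9% in all). In young fear against shock-context mice 40 were higher and 34 lower (59.7% in all), against 46% and 18.9% of all probes (64.9% in all). Quantile normalization gave 27 higher and 43 lower, and 18 higher and 48 lower. Among the lower probes, Bst2 had -0.87 ± 0.16 against context and -1.0005 ± 0.16 against shock-context mice. Oas1c had -0.45 ± 0.09 and -0.59 ± 0.09, and H2-DMb1 (A_51_P278868) -0.39 ± 0.14 and -0.64 ± 0.14. H2-Aa had -0.78 ± 0.21 and -0.80 ± 0.21, H2-T23 -0.52 ± 0.13 and -0.61 ± 0.13, and Psmb8 (A_51_P345366) -0.44 ± 0.10 in each. These probes all passed in each comparison, and none of their young fear arrays reached a context or shock-context array. The other Psmb8 probe, A_51_P345367, had mean levels of -2.07 in young fear, -1.96 in context and -1.88 in shock-context mice. Its young fear arrays overlapped those of both other groups. The other H2-DMb1 probe, A_52_P146877, had -0.34 in young fear and -0.21 in context mice, each against young control mice. Ifit3 had -0.16 ± 0.12 and -0.38 ± 0.12, and the second of these passed (adjusted p = 0.23 and 0.0081). Psmb10, which fell in young fear against young control mice, had mean levels of 2.78 in young fear, 2.64 in context and 2.86 in shock-context mice. Those of Psmb9, which fell likewise, were -2.05, -1.95 and -1.86, and its young fear arrays overlapped both other groups. The choroid plexus sum was 1.81 to 4.66 in young fear mice, against 26.8 to 62.2 in context and 31.9 to 72.0 in shock-context mice. The thalamus sum was 11.3 to 12.9 in young fear mice, against 2.95 to 3.56 in context and 3.14 to 3.92 in shock-context mice, with 6 of 6 markers higher in each comparison. The microglia sum was 26.7 to 29.0 in young fear mice, against 24.5 to 25.6 in context and 25.8 to 29.6 in shock-context mice. The part of these cells was not tested.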

How the data were processed

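Per the labels' protocols, 600 ng of total RNA per hippocampus (RNA integrity number 9.0 to 10.0) was labelled and put on Agilent 1-colour arrays. Per the file headers, spots were read with Agilent Feature Extraction 9.5.3.1, and the deposited scanner files give for each a processed signal intensity, with the background subtracted and no scaling between arrays. The deposited value table was read as the authors' log2 values, from the numbers and not from a label, and served as an alternative. Its scale and centring (column medians of 8.66) are otherwise not given in the sources used here.

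From the processed intensity, log2 was taken and each array's 75th percentile subtracted. Control spots did not enter, spots marked as outliers counted as missing (2 member values) and repeated spots of a probe were averaged. A probe needed a signal well above background on 4 or more of the 24 arrays. Names are those of the newer of the annotations in the files; 3 more probes bear such a name only in the older one and were not counted. Group means of all 24 arrays were fitted in limma 3.58.1 (R 4.3.3, lmFit and eBayes, 18 residual degrees of freedom), in 10 comparisons; p-values are two-sided and adjusted over all probes by Benjamini-Hochberg. The highest-mean probe stood for a gene where 1 probe is named. On simulated data over 38768 probes for young fear against young control mice, 32 of 50 probes raised by 1 on the log2 scale and 27 of 50 lowered by 1 were found, 9 and 6 of 50 at 0.5, and 4 of 38568 unchanged probes were called. In the simulation nearly all probes were unchanged and the noise was independent between arrays. In the data 44.6% of all probes passed in this comparison, so the simulated shares do not give its rate of detection. The number of arrays limits the precision.

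The members, roles, motifs and gene lists were chosen with earlier results of these data known. The panel of fixed genes is given in full for old against young control and young fear against young control mice, and in part elsewhere. Named genes are those of smallest adjusted p in each role and this panel, apart from some that are not reported here. Alternatives were other scalings, normexp background correction with an offset of 50, other filters, 1 probe a gene, the deposited values, slides or array pairs as blocks, only the compared arrays, eBayes with trend and robust, and each array left out. Same-numbered arrays of the control and fear groups lay on the same slide. Of 24 same-numbered pairs of these arrays 15 correlated above 0.1 (-0.42 to 0.65). The main fit left this slide block out, and fits with the slide as a block are among the alternatives.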

Additional observations from a re-analysis of the deposited data

Results flagged for a closer look

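In 3 of 84 groups of 4 arrays checked, over the 14 probes whose array values are given, 1 array lay far from the other 3 by Dixon's test, where chance gives about 1 group in 20. Oas1c in young control mice was highest on array 2 at -2.24, with the others at -2.42 to -2.39. Ifit1 in context mice was highest on array 3 at -2.41, with the others at -3.06 to -2.95. The upstream Irf9 probe in context mice was highest on array 2 at -3.60, with the others at -5.09 to -4.85.

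The response to training differed between the ages, by the test of the difference itself, for 19 member probes, of which 14 are given here. A value above 0 means a response less negative or more positive in old than in young mice. Above 0 were Irf3 (A_52_P609770) at 1.85, H2-Bl (A_51_P247114) at 1.46, Bst2 at 1.31, Psmb10 at 0.96, H2-Ke2 at 0.88 and Oas1c at 0.83. So were Psmb9 at 0.82, H2-M3 (A_51_P469968) at 0.80, H2-DMb1 (A_51_P278868) at 0.73, Stat5b at 0.69, Stat2 at 0.64 and Psmb8 (A_51_P345366) at 0.60. Below 0 were the upstream Irf9 probe at -1.61 and Irf2bp1 at -1.04. For some other probes of these genes the young and old values lay closer together. Irf3 (A_51_P485499) had -0.37 in young and -0.17 in old mice, and H2-Bl (A_52_P350519) -0.22 and -0.31. Stat5b (A_52_P663027) had 0.29 in young and 0.21 in old mice, and the downstream Irf9 probe 0.015 and 0.090. Of these values only that of Irf3 in young mice passed the threshold. The other Psmb8 probe, A_51_P345367, had -0.66 in young mice, which passed, and -0.49 in old mice, which did not.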

How the results depend on the processing

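For 162 named log2 changes, 3313 values were computed under alternatives: 3124 kept direction and side of the threshold, 126 lost their call, 22 gained one and 41 changed sign. Counts of member probes past the threshold moved by over 1.5 times as follows, and the cause was not tested. Old control against young control (6) gave 0 with normexp, with array pairs as random blocks and with only the arrays compared, 10 with quantile normalization, 11 with the slide as random block and 1 with the slide as fixed replicate block, the paired analysis. Leaving out 1 array gave 1 to 12 there, 0 to 1 for old fear against old control, 46 to 54 for young fear against young control, 49 to 61 for old fear against young fear and 15 to 21 for the difference of responses. Old fear against old control (0) gave 1 with quantile normalization and 1 with the slide as random block. With normexp, counts were 28 for young fear against young control (55), 7 for the difference of responses (19), 30 for young fear against context (74) and 24 for young fear against shock-context (74). With 1 probe a gene, which tests fewer probes, they were 36 for young fear against young control, 36 for old fear against young fear (60), 49 for young fear against context and 48 for young fear against shock-context. The replicate block kept 54 of 55 calls in young fear against young control.

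Signs changed with normexp for B2m (-0.059) and the downstream Irf9 probe (0.039) in old against young control, for Irf1 (A_52_P175685, -0.10), the upstream Irf9 probe (-0.014) and Oasl1 (-0.43) in young fear against young control, and for the upstream Irf9 probe in old fear against young fear (0.52) and in the difference of responses (0.013). Median scaling turned Cd74 (0.085), Tapbp (0.016) and Oasl2 (0.051) in young fear against young control, and Psmb8 (A_51_P345366) in context (0.039) and shock-context (0.064) against young control. Irf7 in young fear turned with the deposited values (0.058) and quantile normalization (0.0044). The second H2-M3 probe (A_52_P490263) gave -0.63 with normexp in young fear against young control, -0.098, -0.0045 and -0.23 with the deposited values, median scaling and quantile normalization in old fear against young fear, and -0.15, -0.061 and -0.29 with these in the difference of responses, where the second H2-DMb1 probe (A_52_P146877) gave -0.16, -0.032 and -0.18. Leaving out 1 array moved these H2-M3 values over -0.0035 to 0.15 in young fear against young control and -0.073 to 0.096 in the difference of responses, and that of H2-DMb1 over -0.067 to 0.19. It moved Cd74 over -0.39 to 0.31 and the downstream Irf9 probe over -0.084 to 0.22 in young fear against young control, and that Irf9 probe over -0.18 to 0.12 in old against young control. Signal over background is a further limit: 27 of the 124 probes were not well above background on some arrays.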
